A study of Homo sapiens with 6 samples.

Results

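The interferon-stimulated genes ISG15, IFI6, IFI27, IFIT1, IFIT2, IFIT3, MX1, OAS1 and IRF1 were taken by symbol from the gene table, where all 9 were found among 61806 genes. They were measured by RNA sequencing in HK2, an established line of human kidney tubule epithelial cells, with 6 libraries in all. Every library came from cells carrying a FLAG-VMP1 plasmid, harvested 48 h after transfection; VMP1 is a membrane protein of the endoplasmic reticulum needed for autophagy. In 3 libraries, titled as positive controls, total lysate was used directly. In the other 3, RNA was recovered from lysate with anti-FLAG magnetic beads (RNA immunoprecipitation), so the comparison asks which transcripts were over- or under-represented in the FLAG immunoprecipitate. The treatment labels number the plasmid differently in each of the 6 samples, whereas the titles name VMP1, and the titles were used. Untransfected cells, and beads used on cells lacking the FLAG construct, were not analysed here. Nothing in the labels says that the replicates were separate cultures, and the p-values below therefore reflect the spread between these libraries, which may be technical.

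Type I interferons bind a receptor on the cell surface, and the JAK1 and TYK2 kinases then phosphorylate STAT proteins, which enter the nucleus. A complex with IRF9 binds the interferon-stimulated response element (ISRE) of target promoters, while the response to interferon gamma acts through the gamma-activated site (GAS). The products include antiviral effectors such as the IFIT, MX and OAS proteins and the ubiquitin-like modifier ISG15, and tubule epithelium, like most cell types, can express them.

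The promoter stretches that hold these elements are shown because they are what most of these genes share in sequence. RefSeq promoters on GRCh38.p14, from 250 bases before to 50 bases after each start, were listed for 8 of the 9 genes and not for IFIT2. Each stretch is written 5′ to 3′ on the gene's strand, with matches in capitals. The ISRE core was searched on both strands as GAAA, any 2 bases and GAAA again, so that on the reverse strand TTTC takes the place of each GAAA. GAS was searched as TTCNNNGAA, which is the same on both strands, and matches may overlap.
ISG15 (chr1:1013369-1013414, plus strand): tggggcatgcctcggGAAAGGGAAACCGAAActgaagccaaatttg
IFI6 (chr1:27672261-27672363, minus strand): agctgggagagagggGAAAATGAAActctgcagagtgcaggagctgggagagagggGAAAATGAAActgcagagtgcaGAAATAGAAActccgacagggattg
IFI27 (chr14:94110613-94110665, plus strand): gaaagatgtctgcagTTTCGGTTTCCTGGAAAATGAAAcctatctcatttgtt
IFIT1 (chr10:89392492-89392544, plus strand): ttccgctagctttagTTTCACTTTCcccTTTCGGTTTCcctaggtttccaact
IRF1 (chr5:132490874-132490912, minus strand): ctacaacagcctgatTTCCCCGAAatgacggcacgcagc

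The ISG15 stretch holds 2 ISRE cores that overlap each other, the IFI6 stretch holds 3 and the IFIT1 stretch 2. The IFI27 stretch holds 2 ISRE cores with a GAS match overlapping both, and the IRF1 stretch holds only a GAS match. An ISRE core was found in 6 of the 8 genes with a listed promoter (ISG15, IFI6, IFI27, IFIT1, IFIT3 and MX1), against 4.38% of the 27305 genes in the table. A GAS match was found in 4 of the 8 (IFI27, MX1, OAS1 and IRF1), against 9.38% of all genes. A gene was counted if any of its listed promoters held a match. For MX1 the promoter of the start at chr21:41426239 held none, and the matches lay in the promoters of other starts. A match describes the letters only and says nothing of binding in these cells.

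Library totals were 77753608 to 92948069 counts in the lysates and 54363555 to 59293096 in the immunoprecipitates. Levels are given as CPM, the count scaled by library size, with sizes adjusted by the trimmed mean of M values (TMM). The library labelled immunoprecipitate 2 stood apart, and it is named below by that label only. The targeted gene VMP1 was at 297, 301 and 306 CPM in lysates 1 to 3 and at 2347 and 2685 CPM in immunoprecipitates 1 and 3, but at 274 CPM in immunoprecipitate 2. A chi-square per gene of 55.2 separated immunoprecipitates 1 and 3 from each other, whereas immunoprecipitate 2 differed from them by 923 and 1003. The tests of the 9 genes are therefore given both with all 6 libraries and without that library.

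None of the 9 genes passed an adjusted p of 0.05 in edgeR's quasi-likelihood test with all 6 libraries, where 0.66% of 20593 tested genes did (0.16% higher and 0.5% lower in the immunoprecipitate). At an unadjusted p under 0.05, 1 of the 9 passed, IFI27, against 21.3% of all tested genes. DESeq2 called the same gene higher and none lower, with 9.43% of all genes called higher and 5.9% lower. Without immunoprecipitate 2, edgeR called 5 of the 9 lower (ISG15, IFI6, MX1, OAS1 and IRF1) and 1 higher (IFI27), while 51.1% of 22062 tested genes were called, 23.9% higher and 27.2% lower. The IFIT genes did not pass in either fit. These calls compare a gene's share of counts in the immunoprecipitate with that in the lysate, and do not measure a change of expression in the cells. In the lysates, which are bulk RNA, fewer cells expressing a gene and less of its RNA per cell cannot be told apart.

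**Figure D1:**
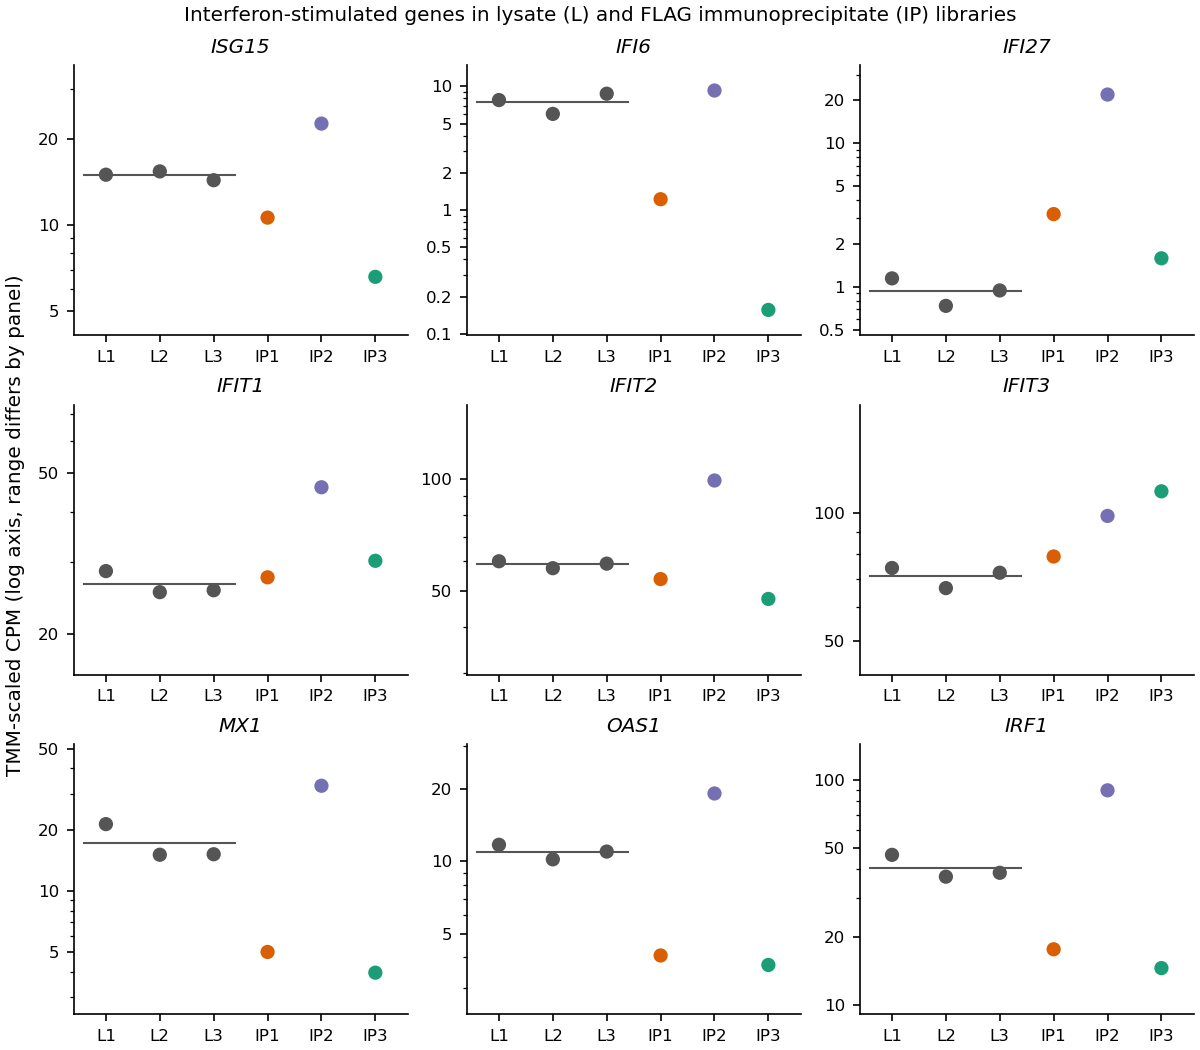
Level of each interferon-stimulated gene in lysates 1 to 3 (L1 to L3, gray) and FLAG immunoprecipitates 1 to 3 (IP1 to IP3), as TMM-scaled CPM on a log axis whose range differs by panel; the line is the lysate mean. Immunoprecipitate 2 is the highest of the 6 points in every panel except IFIT3, and IFI6, MX1, OAS1 and IRF1 are far below the lysates in immunoprecipitates 1 and 3.

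ISG15 (ENSG00000187608, chr1:1001138-1014540, plus strand) encodes a ubiquitin-like protein that is attached to other proteins and is also secreted. It was at 15.0, 15.4 and 14.4 CPM in lysates 1 to 3, and at 10.6, 22.7 and 6.60 CPM in immunoprecipitates 1 to 3. The lysates were close together, and the immunoprecipitates lay on both sides of them. Its log2 fold change, immunoprecipitate minus lysate, was -0.17 (SE 0.46, adjusted p = 0.858, edgeR) with all 6 libraries. Without immunoprecipitate 2 the log2 fold change was -0.78 (SE 0.22, adjusted p = 0.0271, edgeR).

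IFI6 (ENSG00000126709, chr1:27666064-27672198, minus strand) encodes a small hydrophobic protein that restrains apoptosis and the replication of some viruses. It was at 7.77, 6.01 and 8.74 CPM across lysates and at 1.23, 9.28 and 0.156 CPM in immunoprecipitates 1 to 3. Immunoprecipitate 3 held only 10 counts and immunoprecipitate 1 held 78, against 489 to 769 in the lysates, so both were far below every lysate while immunoprecipitate 2 was above them all. The edgeR log2 fold change was -1.08 (SE 1.22, adjusted p = 0.642, edgeR), and without immunoprecipitate 2 it was -3.43 (SE 0.81, adjusted p = 0.0134). That was the lowest value among the 9 genes in both fits.

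IFI27 (ENSG00000165949, chr14:94104836-94116695, plus strand), of the same family of small hydrophobic proteins as IFI6, went the other way. It was at 1.15, 0.737 and 0.944 CPM in the lysates, from 60 to 87 counts, and at 3.21, 21.8 and 1.58 CPM in immunoprecipitates 1 to 3. All 3 immunoprecipitates were above every lysate, by ratios to the lysate mean of 3.41, 23.2 and 1.68. The log2 fold change was 3.23 (SE 1.04, adjusted p = 0.168, edgeR), and DESeq2 gave 3.28 with an adjusted p of 0.00578. Without immunoprecipitate 2 the log2 fold change was 1.35 (SE 0.45, adjusted p = 0.0464, edgeR), so most of the fold with all 6 libraries came from that 1 library.

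The 3 IFIT genes lie together on chromosome 10 and encode proteins with tetratricopeptide repeats that bind viral RNA or assist in doing so. IFIT1 (ENSG00000185745, chr10:89392546-89406487, plus strand), which recognises RNA caps lacking host methylation, was at 28.6, 25.3 and 25.6 CPM across lysates and at 27.6, 46.0 and 30.3 CPM in immunoprecipitates 1 to 3. Immunoprecipitate 1 lay within the lysate range and the other two above it. Its log2 fold change was 0.39 (SE 0.25, adjusted p = 0.411, edgeR), and 0.14 (SE 0.11, adjusted p = 0.324) without immunoprecipitate 2.

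IFIT2 (ENSG00000119922, chr10:89283694-89309271, plus strand), which binds RNA rich in A and U, was at 60.1, 57.5 and 59.2 CPM across lysates and at 53.8, 99.1 and 47.5 CPM in immunoprecipitates 1 to 3. Immunoprecipitates 1 and 3 were slightly below every lysate and immunoprecipitate 2 was above them. IFIT2 had a log2 fold change of 0.18 (SE 0.31, adjusted p = 0.763, edgeR), and -0.21 (SE 0.08, adjusted p = 0.0696) without immunoprecipitate 2.

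IFIT3 (ENSG00000119917, chr10:89327307-89342166, plus strand), a partner that stabilises IFIT1, was at 74.2, 66.5 and 72.3 CPM across lysates and at 78.9, 98.4 and 112 CPM in immunoprecipitates 1 to 3. The groups did not overlap. Among the 9 genes this held for 2, IFI27 and IFIT3, both with all 3 immunoprecipitates above every lysate. Of all tested genes 31.1% did not overlap, 13.4% being above and 17.7% below. The log2 fold change was 0.44 (SE 0.19, adjusted p = 0.246, edgeR), and without immunoprecipitate 2 it was 0.44 (SE 0.15, adjusted p = 0.0528). It was the gene whose value moved least when that library was left out.

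MX1 (ENSG00000157601, chr21:41420020-41459637, plus strand), a dynamin-like GTPase that blocks many RNA viruses, was at 21.3, 15.1 and 15.1 CPM across lysates and at 5.00, 32.9 and 3.96 CPM in immunoprecipitates 1 to 3. Immunoprecipitates 1 and 3 were 3.43 and 4.34 times below the lysate mean, and immunoprecipitate 2 was 1.92 times above it. With all 6 libraries the log2 fold change was -0.30 (SE 0.83, adjusted p = 0.859, edgeR). Without immunoprecipitate 2 the log2 fold change was -1.93 (SE 0.24, adjusted p = 9.14e-04, edgeR).

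OAS1 (ENSG00000089127, chr12:112905856-112933219, plus strand) makes the 2′-5′-linked adenylates that switch on RNase L after binding double-stranded RNA. It was at 11.7, 10.2 and 11.0 CPM across lysates and at 4.08, 19.1 and 3.72 CPM in immunoprecipitates 1 to 3. As for MX1, immunoprecipitates 1 and 3 were below and immunoprecipitate 2 above every lysate. The log2 fold change was -0.29 (SE 0.67, adjusted p = 0.831, edgeR), and -1.48 (SE 0.18, adjusted p = 8.22e-04) without immunoprecipitate 2.

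IRF1 (ENSG00000125347, chr5:132440440-132496467, minus strand), a transcription factor that binds ISRE sequences and is itself induced by interferon, was at 46.4, 37.1 and 38.6 CPM in the lysates. It was at 17.7, 89.6 and 14.6 CPM in immunoprecipitates 1 to 3. The mean of the lysates, 40.7 ± 4.97 CPM (SD, n = 3), and that of the immunoprecipitates, 40.6 ± 42.4 CPM (SD, n = 3), were nearly equal, although no immunoprecipitate lay near either. Accordingly, its log2 fold change was -0.0031 (SE 0.71, adjusted p = 0.999, edgeR). Without immunoprecipitate 2 the log2 fold change was -1.32 (SE 0.15, adjusted p = 5.75e-04, edgeR).

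**Figure D2:**
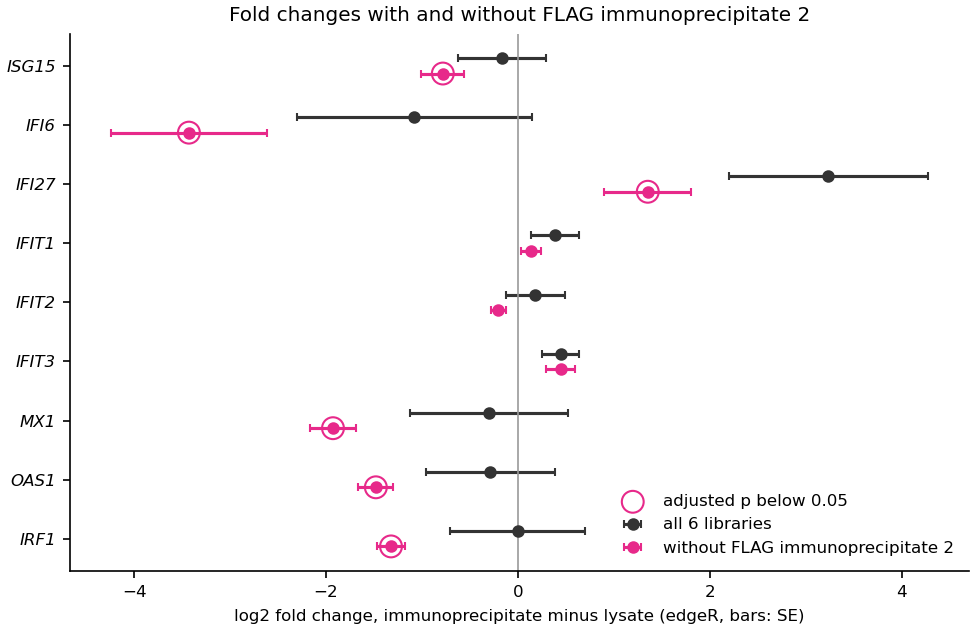
Log2 fold change of each gene, immunoprecipitate minus lysate, with an SE derived from edgeR's F statistic, for all 6 libraries (black) and without immunoprecipitate 2 (pink). Rings mark an adjusted p below 0.05. No black point is ringed, and 6 pink points are, with IFI6 at -3.43 and IFI27 at 1.35.

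The 9 genes thus fell into patterns by library. Immunoprecipitate 2 was the highest of the 6 libraries for 8 of the 9 genes, IFIT3 being the exception, against 28.5% of tested genes. Immunoprecipitates 1 and 3 were both below every lysate for 6 of the 9 (ISG15, IFI6, IFIT2, MX1, OAS1 and IRF1), against 40.1% of tested genes. These 6 were also above every lysate in immunoprecipitate 2, a combination shown by 16.4% of tested genes.

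The median shift of the 9 genes from the lysate mean, on the scale of log2(CPM + 0.5), was -0.47 in immunoprecipitate 1, 0.78 in immunoprecipitate 2 and -1.12 in immunoprecipitate 3. Over all tested genes these medians were -0.05, -0.01 and -0.18. The median log2 fold change of the 9 genes was -0.0031 with all 6 libraries and -0.78 without immunoprecipitate 2, beside 0.06 and -0.06 over all tested genes.

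Levels were compared between genes per length, on the deposited FPKM in the lysates. ISG15 was highest at 15.6 ± 0.62 FPKM (SD, n = 3), followed by IFIT3 at 12.7 ± 0.97 and IFIT2 at 12.4 ± 0.54, whose libraries overlapped. IFI6 came next at 7.27 ± 1.41 FPKM, overlapping IFIT1 at 5.22 ± 0.47, and IRF1 was at 3.01 ± 0.44 FPKM. MX1 at 0.865 ± 0.20 and OAS1 at 0.761 ± 0.069 FPKM overlapped, and IFI27 was lowest at 0.197 ± 0.047 FPKM. IFI27, the gene least abundant in lysate, was thus also the one with the largest ratio in each of immunoprecipitates 1, 2 and 3.

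Similarity between the genes was measured as the root mean square distance between log2(CPM + 0.5) values centred on each gene's mean over the 6 libraries. OAS1 and IRF1 were nearest to each other at 0.14, IFIT1 and IFIT2 at 0.19, and IFIT3 was nearest to IFIT1 at 0.23. MX1 was nearest to IRF1 at 0.24, ISG15 to IFIT2 at 0.30 and IFI6 to MX1 at 0.61. IFI27 stood farthest from the others, its nearest neighbour IFIT1 lying at 1.16. Among 12293 genes of at least 5 CPM on average, those nearest to the median profile of the 9 were TYK2 at 0.07, ANGEL1 at 0.08 and TMX2 at 0.09; the distances describe the same 6 libraries and carry no test.

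At transcript level, 111 annotated transcripts of the 9 genes had counts and 34 were tested. None was called with all 6 libraries in edgeR (4 had an unadjusted p under 0.05), where 0% of 62534 transcripts were called and 9.67% had an unadjusted p under 0.05. Without immunoprecipitate 2, 7 of 40 were called lower and 0 higher, against 8.56% of all transcripts tested (6.1% lower and 2.45% higher). The 7 comprised 3 of MX1 and 1 each of ISG15, IFI6, IFIT2 and IRF1. The split of counts between overlapping transcripts is an estimate made by the counting tool.

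By annotated class, every transcript of ISG15, IFI6, IFIT1 and IFIT3 with counts was protein coding, and coding transcripts held at least 99.8% of IFIT2 counts in each library, whereas MX1, IFI27, OAS1 and IRF1 also had counts on retained-intron transcripts. The retained-intron share of MX1 counts was 17.2, 21.4 and 16.4% in the lysates and 45.0, 33.5 and 100% in immunoprecipitates 1 to 3. In immunoprecipitate 3, 0 of 253 MX1 counts were on coding transcripts, which allows a share of up to 1.19% (3 counts of the total), and in immunoprecipitate 1 the coding share was 55.0% (95% Wilson interval 49.5 to 60.4%). All 3 immunoprecipitates were above every lysate in the retained-intron share of MX1, and how many other genes show this was not counted. The split also varied between lysates. The retained-intron transcript ENST00000681382 of MX1 held 5, 106 and 0 counts in lysates 1 to 3, and 52, 272 and 213 in immunoprecipitates 1 to 3. ENST00000546318 held 77.5, 0.19 and 0.40% of IFIT1 counts in lysates 1 to 3.

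The OAS1 retained-intron share was 9.20, 6.14 and 4.03% in the lysates and 14.3, 7.40 and 39.9% in immunoprecipitates 1 to 3. Immunoprecipitates 1 and 3 were above every lysate and immunoprecipitate 2 was within their range. For IRF1 the share was 17.9, 13.7 and 15.8% in the lysates and 21.3, 12.1 and 10.1% in immunoprecipitates 1 to 3. Immunoprecipitate 1 was thus above every lysate, and immunoprecipitates 2 and 3 were below them all. That order depends on ENST00000443093, a model outside the span of the main coding transcript, with 197, 139 and 106 counts in the lysates and 37, 154 and 0 in immunoprecipitates 1 to 3. ENST00000472045, inside that span, held 11.3, 8.43 and 12.3% of IRF1 counts in the lysates and 17.2, 8.18 and 9.96% in immunoprecipitates 1 to 3. There immunoprecipitate 3 was within the lysate range. For IFI27 the share was 66.7, 65.0 and 50.6% in the lysates and 72.5, 15.6 and 80.2% in immunoprecipitates 1 to 3. The added IFI27 counts of immunoprecipitate 2 were therefore mostly coding, with 976 of its 1156 counts (84.4%) on coding transcripts, while those of immunoprecipitates 1 and 3 were mostly on intron-retaining ones. With 3 libraries a group these shares were not tested, and the intervals and upper limits cover counting error only.

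**Figure D3:**
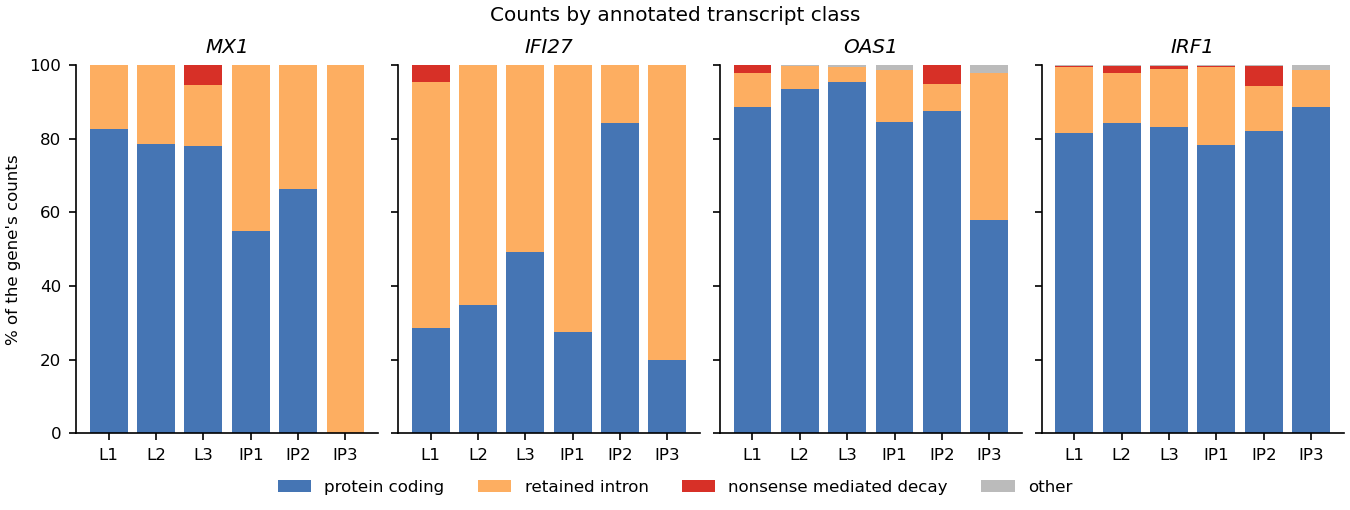
Share of each gene's counts, in percent, on transcripts annotated as protein coding, retained intron, nonsense-mediated decay or other, in lysates (L1 to L3) and immunoprecipitates (IP1 to IP3). Retained-intron transcripts hold 16.4 to 21.4% of MX1 counts in the lysates and 100% in immunoprecipitate 3, while the coding share of IFI27 reaches 84.4% only in immunoprecipitate 2.

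LIPA, the gene of lysosomal acid lipase, lies on the opposite strand across the whole spans of IFIT1, IFIT2 and IFIT3. It was at 109, 112 and 114 CPM across lysates and at 54.7, 183 and 59.9 CPM in immunoprecipitates 1 to 3. The sources used here do not give whether reads were counted by strand, and the part of LIPA reads in the IFIT counts was not tested. ENSG00000232110 overlaps IFIT2 on the same strand and averaged 9.88 CPM, and IRF1-AS1 lies opposite IRF1 and averaged 2.70 CPM.

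The rest of the interferon pathway was taken from 8 role lists of 121 genes, of which 104 had counts and 98 were tested. None of the 98 was called with all 6 libraries in edgeR, against 0.66% of all tested genes. An unadjusted p under 0.05 was found for 14, against 21.3% of all tested genes. DESeq2 called 4 higher and 5 lower, against 9.43% and 5.9% of all tested genes. It gave no p-value for some genes, among them UBE2L6, IFNGR1, OAS2, OAS3 and OASL. Such genes count as not called in the DESeq2 shares here and above. Without immunoprecipitate 2, edgeR called 12 higher and 52 lower, against 23.9% and 27.2% of all tested genes. The counts by role below come from that same fit, in which 51.1% of all tested genes were called, and with 6 to 15 genes in all lists but the effectors a share near it says little about a role. The median log2 fold change of the 98 was -0.09, and -0.74 without immunoprecipitate 2, beside 0.06 and -0.06 over all tested genes.

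**Figure D4:**
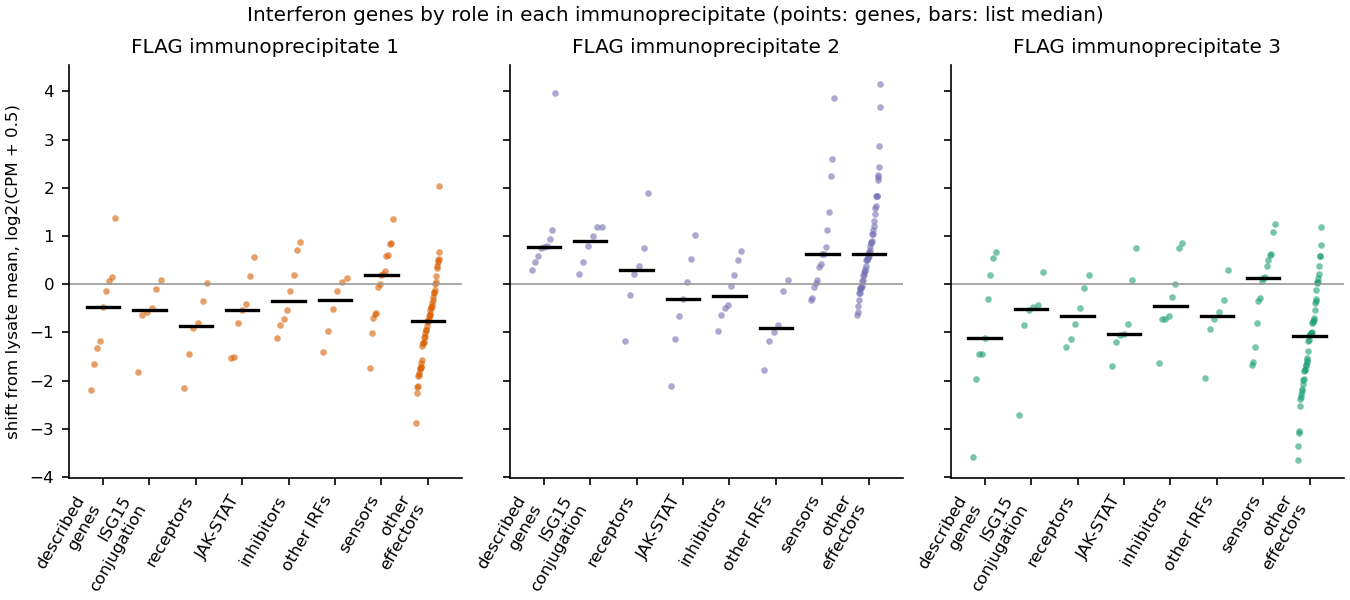
Shift of each pathway gene (points) from the lysate mean on the log2(CPM + 0.5) scale in immunoprecipitates 1, 2 and 3, by role, with list medians as bars; the 9 described genes are in the first column. The medians of the 9 genes are -0.47, 0.78 and -1.12, and those of the other effectors are -0.76, 0.63 and -1.07.

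Of the 21 listed ligand genes 4 had any count, and none was high enough to be tested. IFNB1, the gene of interferon beta, had 21 counts in immunoprecipitate 2 and 0 in each of the other 5 libraries. IFNG, the gene of interferon gamma, had 10, 2 and 10 counts in the lysates and 0 in each immunoprecipitate.

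Of the 6 receptor genes, none was called higher and 3 were called lower without immunoprecipitate 2, against 23.9% and 27.2% of all tested genes. IFNGR1, the ligand-binding chain of the interferon gamma receptor, was at 42.8, 37.8 and 34.3 CPM across lysates and at 13.7, 144 and 15.2 CPM in immunoprecipitates 1 to 3. Its log2 fold change was -1.39 (SE 0.13, adjusted p = 2.80e-04, edgeR) without immunoprecipitate 2, and 0.59 (SE 0.92, adjusted p = 0.744) with all 6 libraries. IL10RB, a chain shared by the receptors of interferon lambda and interleukin 10, was at 41.5 to 43.9 CPM across lysates and at 9.32, 55.9 and 19.2 CPM in immunoprecipitates 1 to 3. IL10RB had a log2 fold change of -0.61 (SE 0.62, adjusted p = 0.599, edgeR), and -1.58 (SE 0.29, adjusted p = 0.00516) without immunoprecipitate 2. IFNLR1, the other chain of the interferon lambda receptor, was below every lysate in all 3, at 4.91, 4.01 and 6.68 CPM against 8.02 to 11.8 CPM, with a log2 fold change of -0.91 (SE 0.32, adjusted p = 0.192, edgeR), and of -0.74 (SE 0.25, adjusted p = 0.0503) without immunoprecipitate 2.

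Of the 7 JAK-STAT genes, 1 was called higher and 4 lower without immunoprecipitate 2, against 23.9% and 27.2% of all tested genes. JAK1, a kinase of both interferon responses, was at 906, 911 and 864 CPM in lysates 1 to 3 and at 512, 409 and 508 CPM in immunoprecipitates 1 to 3, so that all 3 immunoprecipitates were below every lysate. Its log2 fold change was -0.91 (SE 0.19, adjusted p = 0.0943, edgeR) with all 6 libraries, and -0.80 (SE 0.05, adjusted p = 3.72e-05) without immunoprecipitate 2. DESeq2 with all 6 libraries gave -0.85 with an adjusted p of 1.49e-04. JAK1 thus differed in pattern from MX1, OAS1 and IRF1, being lowest rather than highest in immunoprecipitate 2. STAT3 was above every lysate in immunoprecipitate 2 and below them in the other two, at 169 to 173 CPM across lysates and at 58.9, 249 and 53.0 CPM in immunoprecipitates 1 to 3. STAT3 had a log2 fold change of -0.52 (SE 0.62, adjusted p = 0.662, edgeR), and -1.61 (SE 0.07, adjusted p = 1.26e-05) without immunoprecipitate 2.

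Of the 8 inhibitor genes, 2 were called higher and 4 lower without immunoprecipitate 2, against 23.9% and 27.2% of all tested genes. SOCS3, a feedback inhibitor of JAK kinases, was at 44.9 to 48.9 CPM across lysates and at 87.0, 24.1 and 80.6 CPM in immunoprecipitates 1 to 3, low where MX1, OAS1 and IRF1 were high, with a log2 fold change of 0.43 (SE 0.46, adjusted p = 0.627, edgeR) with all 6 libraries. Without immunoprecipitate 2 the log2 fold change of SOCS3 was 0.83 (SE 0.07, adjusted p = 1.33e-04, edgeR). TRIM28, a corepressor, was below every lysate in all 3 immunoprecipitates, at 210, 270 and 229 CPM against 373 to 388 CPM. The phosphatase genes PTPN6 and PTPN1 were also below every lysate in all 3, although PTPN1 in immunoprecipitate 2, at 133.3 CPM, was next to the lowest lysate at 133.6 CPM. That makes 3 of the 8 inhibitor genes, against 17.7% of all tested genes.

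Of the 6 other IRF genes, 1 was called lower and none higher without immunoprecipitate 2, against 27.2% lower and 23.9% higher among all tested genes. IRF7, a main driver of interferon alpha genes, was at 7.29, 6.40 and 7.99 CPM across lysates and at 2.41, 3.78 and 1.502 CPM in immunoprecipitates 1 to 3. The edgeR log2 fold change of IRF7 was -1.50 (SE 0.42, adjusted p = 0.137) with all 6 libraries. That value was -1.87 (SE 0.30, adjusted p = 0.00249, edgeR) without immunoprecipitate 2, and DESeq2 with all 6 libraries gave -1.45 with an adjusted p of 0.00884. All 3 immunoprecipitates were below every lysate, so IRF7 did not share the high value of IRF1 in immunoprecipitate 2.

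Of the 15 nucleic acid sensor genes, 5 were called higher and 4 lower without immunoprecipitate 2, against 23.9% and 27.2% of all tested genes, and their median log2 fold change was 0.47, and 0.18 without that library. MAVS, the mitochondrial adaptor of RNA sensors, was at 182, 174 and 176 CPM across lysates and at 316, 239 and 375 CPM in immunoprecipitates 1 to 3, all above every lysate. IFI16, a DNA sensor, was likewise above in all 3, at 121, 223 and 121 CPM against 74.6 to 82.9 CPM. Their log2 fold changes were 0.81 for MAVS (adjusted p = 0.128, edgeR) and 0.97 for IFI16 (adjusted p = 0.148), and DESeq2 called both higher. Without immunoprecipitate 2, the log2 fold changes were 0.98 for MAVS (adjusted p = 1.82e-04, edgeR) and 0.62 for IFI16 (adjusted p = 4.26e-04). CGAS, which makes the messenger cGAMP on binding DNA, was at 56.6, 17.8 and 52.9 CPM in immunoprecipitates 1 to 3 against 19.6 to 23.4 CPM in the lysates, with a log2 fold change of 0.95 (adjusted p = 0.270, edgeR) and of 1.33 (adjusted p = 7.39e-05) without immunoprecipitate 2.

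Of the 6 tested genes of ISG15 conjugation, 3 were called lower and none higher without immunoprecipitate 2, against 27.2% and 23.9% of all tested genes. UBE2L6, the conjugating enzyme for ISG15, was at 45.6, 45.5 and 43.0 CPM across lysates and at 12.3, 90.2 and 6.38 CPM in immunoprecipitates 1 to 3, the same order as ISG15 itself. UBE2L6 had a log2 fold change of -0.30 (SE 0.93, adjusted p = 0.876, edgeR), and -2.25 (SE 0.27, adjusted p = 7.53e-04) without immunoprecipitate 2. UBA7, its activating enzyme, was at 16.6 to 18.1 CPM across lysates and at 11.4, 40.2 and 12.8 CPM in immunoprecipitates 1 to 3. TRIM25 was at 70.0 to 73.1 CPM across lysates and at 51.2, 166 and 40.1 CPM in immunoprecipitates 1 to 3. HERC5, the main ligase for ISG15, was closer to the lysates, at 38.4, 41.6 and 42.8 CPM against 33.5 to 38.7 CPM.

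Of 50 other tested effector genes, 4 were called higher and 33 lower without immunoprecipitate 2, against 23.9% and 27.2% of all tested genes. Their median log2 fold change was -0.94 in that fit, and -0.15 with all 6 libraries. Immunoprecipitate 2 was the highest library for 36 of the 50, against 28.5% of all tested genes. Among relatives of the described genes, OAS2 was at 9.12 to 12.8 CPM across lysates and at 2.39, 50.3 and 1.39 CPM in immunoprecipitates 1 to 3. OAS3 was at 69.4 to 84.7 CPM across lysates and at 17.4, 138 and 15.5 CPM in immunoprecipitates 1 to 3, and OASL and MX2 had the same order. IFIT5 did not share this order, at 18.2 to 22.1 CPM across lysates and at 29.5, 19.5 and 47.9 CPM in immunoprecipitates 1 to 3. Its log2 fold change was 0.64 (SE 0.35, adjusted p = 0.341, edgeR) with all 6 libraries, and 0.91 (SE 0.22, adjusted p = 0.0141) without immunoprecipitate 2.

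BST2, the tetherin that holds budding virus at the cell surface, was at 189, 209 and 222 CPM across lysates and at 46.8, 310 and 51.5 CPM in immunoprecipitates 1 to 3. BST2 had a log2 fold change of -0.60 (SE 0.75, adjusted p = 0.676, edgeR), and -2.06 (SE 0.09, adjusted p = 1.34e-05) without immunoprecipitate 2. LGALS3BP, a secreted glycoprotein, and ADAR, which edits adenosines in double-stranded RNA, were likewise below every lysate in immunoprecipitates 1 and 3 and above them in immunoprecipitate 2. SP100, a component of nuclear bodies, was above every lysate in all 3, at 78.6, 80.7 and 85.5 CPM against 55.8 to 58.4 CPM. Its log2 fold change was 0.52 (SE 0.15, adjusted p = 0.138, edgeR), and 0.54 (SE 0.07, adjusted p = 0.00114) without immunoprecipitate 2. IFI30, a lysosomal thiol reductase, was at 3.21 to 5.16 CPM across lysates and at 18.9, 59.8 and 4.32 CPM in immunoprecipitates 1 to 3.

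The summed markers of every cell type list were below the lysates in immunoprecipitates 1 and 3. In immunoprecipitate 2 only the fibroblast sum was above the lysates. Summed markers of tubule epithelium were at 2686 to 2890 CPM across lysates and at 1474, 2266 and 1488 CPM in immunoprecipitates 1 to 3, with 14 of 15 markers having counts and LRP2, the gene of megalin, having none. Summed fibroblast markers were at 290 to 315 CPM across lysates and at 65.4, 899 and 74.8 CPM in immunoprecipitates 1 to 3. All 10 of them were below every lysate in immunoprecipitates 1 and 3, and 6 were above in immunoprecipitate 2, with COL1A2 at 0 in immunoprecipitates 1 and 3. Of all tested genes, 40.1% were below every lysate in immunoprecipitates 1 and 3, and 16.4% were also above in immunoprecipitate 2.

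Neutrophil markers summed to 285 to 485 CPM in the lysates and to 96.5, 368 and 12.05 CPM in immunoprecipitates 1 to 3. Of the 12, 7 were below every lysate in immunoprecipitates 1 and 3, against 40.1% of all tested genes. Markers of other leukocytes summed to 155 to 232 CPM in the lysates and to 72.7, 181 and 31.0 CPM in immunoprecipitates 1 to 3, with 9 of the 11 that had counts below; CLEC4C of plasmacytoid dendritic cells had none. Endothelial markers summed to at most 31.7 CPM in any library. The fibroblast sum was the only one above the lysates in immunoprecipitate 2, and LOX alone made up 551 of its 899 CPM, whereas LUM was at 18.0 CPM there against 83.4 to 91.3 CPM in the lysates. Single tubule markers were also above every lysate in immunoprecipitate 2, 6 of them in all. Among them were KRT8 at 928 CPM against 459 to 470 CPM and KRT7 at 214 CPM against 27.2 to 28.7 CPM. For these 6 it was the highest library, as for 28.5% of tested genes. Another 8 tubule markers were below every lysate there. Examples are CDH6 at 267 CPM against 1379 to 1493 CPM, PAX8 at 66.1 against 283 to 315 CPM and EPCAM at 17.7 against 82.8 to 94.7 CPM. The part of these markers in the gene results was not tested.

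**Figure D5:**
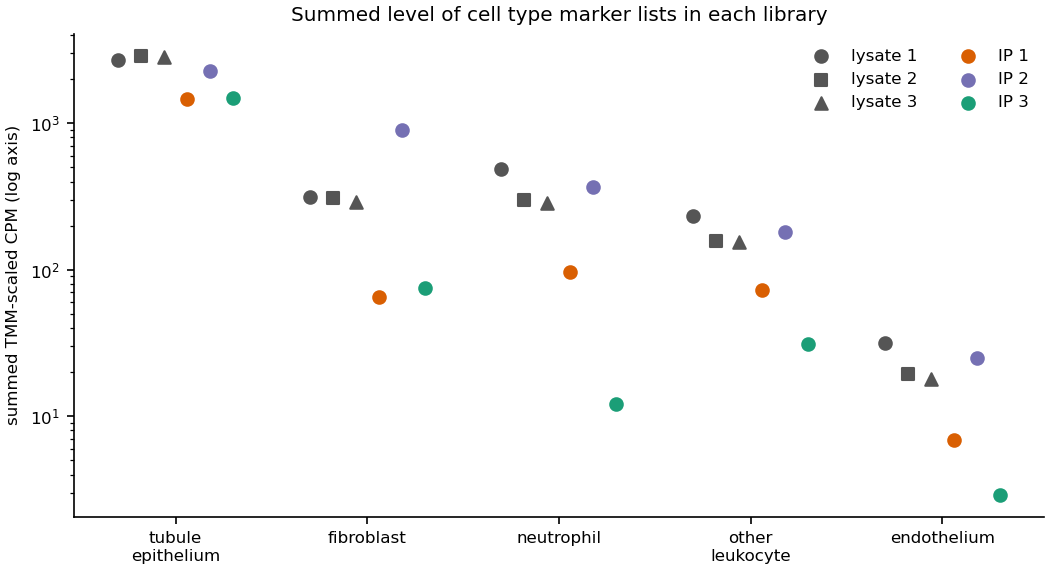
Summed TMM-scaled CPM (log axis) of 5 lists of cell type markers in each of the 6 libraries; gray symbols are lysates 1 to 3 and coloured points immunoprecipitates 1 to 3. Every list is below the lysates in immunoprecipitates 1 and 3, and only the fibroblast list is above them in immunoprecipitate 2, at 899 CPM.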

How the data were processed

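Per the submitters' processing notes, the tools were cutadapt 1.9, HISAT2 2.2.1, StringTie 2.1.6, DESeq2 and edgeR on GRCh38.p14, with no role or order given. The libraries held poly(A) RNA and marked strand by dUTP, per the labels' protocols; the sources used here do not give how strand, or reads shared by related genes, entered the counting. Gene and transcript tables hold raw counts as deposited, per the file headers. FPKM, which divides by length and library size, was also deposited by the authors, per the file headers; it was used to order levels and in limma on log2(FPKM + 1) and log2(FPKM + 0.1), which understate changes of low genes.

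Columns were mapped to samples by title, the input columns being the lysates. Genes passing edgeR's default low-count filter (20593, the 9 described genes included) were tested with edgeR 4.0.16 (quasi-likelihood, TMM, R 4.3.3), with Benjamini-Hochberg adjustment over all genes or all transcripts and a threshold of 0.05. Alternatives were DESeq2 1.42.0, limma 3.58.1, other scalings and filters, the replicate number as a block, and each library left out. ± marks the SD.

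The 9 genes and all lists were chosen with earlier results of these data known. From each role list, up to 3 called genes with the lowest p were named, or the 2 lowest where none was called. That rule was applied with all 6 libraries and again without immunoprecipitate 2, a repeat chosen after seeing the data. Relatives of the 9 genes (IFIT5, OAS2, OAS3, OASL, MX2), LIPA and the named ligands were singled out after their values were seen. Some genes that the rule named are not reported here.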

Additional observations from a re-analysis of the deposited data

How the results depend on the processing

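With all 6 libraries 136 genes were called. That count was 113 with RLE size factors, 122 with upper quartile scaling, 103 with library totals, 104 and 102 with limma on FPKM with a pseudocount of 1 and 0.1, 40 with no filter on low counts, 225 with at least 1 CPM in 3 libraries and 3156 with DESeq2, and it ranged from 0 to 11273 on leaving out a library, the 11273 being without immunoprecipitate 2. The number called among the 9 genes was 0 in these settings except 1 with DESeq2 and a leave-one-out range of 0 to 6; among the 98 pathway genes it was 0 except 9 with DESeq2 and a range of 0 to 64; among transcripts of the 9 genes, run with RLE, no filter, the block and libraries left out, it was 0 except for a range of 0 to 7. The highest value came each time without immunoprecipitate 2. Deviations of same-numbered libraries from their group means correlated at r = -0.01, -0.05 and 0.01. Because immunoprecipitate 2 stood far from the other immunoprecipitates and so shaped their deviations, these values cannot decide whether the replicate number paired the libraries. With the replicate block 0 genes were called (2658 at an unadjusted p under 0.05), and 0 of the 9 genes, 0 pathway genes and 0 of their transcripts. The cause of these differences was not tested.

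Signs of small fold changes moved, and the median of all genes moved with the setting, from 0.06 to 0.19 with library totals, 0.16 with no filter, -0.14 with the replicate block and -0.06 without immunoprecipitate 2. IRF1 turned positive with RLE size factors (0.046), upper quartile scaling (0.034), library totals (0.071), no filter (0.0063), the stricter filter (0.061) and DESeq2 (0.046). With the replicate block, TRIM25 was -0.065, IFNGR1 -0.39, TYK2 -0.21, OAS2 -1.24 and OASL -0.87. With limma on FPKM and pseudocounts of 1 and 0.1, IFNGR1 was -0.075 and -0.14 and TYK2 -0.022 and -0.046; with 0.1, OAS2 was -0.46 and OASL -0.21. With library totals IFNGR2 was 0.011. On leaving out a library, log2 fold changes ranged from -0.78 to 0.14 for ISG15, -0.21 to 0.36 for IFIT2, -1.93 to 0.12 for MX1, -1.48 to 0.059 for OAS1 and -1.32 to 0.38 for IRF1. These ranges were -0.50 to 0.59 for UBA7, -2.25 to 0.18 for UBE2L6, -0.65 to 0.57 for TRIM25, -1.39 to 1.03 for IFNGR1, -0.82 to 0.16 for IFNGR2, -0.76 to 0.42 for TYK2, -2.46 to 1.31 for OAS2 and -2.08 to 1.55 for OASL. Each lowest value was without immunoprecipitate 2. IFI6, IFI27, IFIT1 and IFIT3 kept their sign in all 16 settings, with log2 ranges of -3.43 to -0.54, 1.03 to 3.71, 0.14 to 0.51 and 0.30 to 0.58. Depth limits IFI6 in immunoprecipitate 3 (10 counts) and IFI27 in the lysates (60 to 87 counts).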

Other observations

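Counts of ISG15 lay on 3 annotated transcripts. ENST00000649529, of 2 exons and 637 bases, held 1105, 1182 and 1201 counts in the lysates and 381, 1169 and 365 in immunoprecipitates 1 to 3. ENST00000624697, of 3 exons and 787 bases, held 17, 42 and 33 counts in the lysates and 295, 32 and 57 in immunoprecipitates 1 to 3, with a log2 fold change of 2.27 (SE 1.05, adjusted p = 0.562, edgeR), and of 2.63 (adjusted p = 0.170) without immunoprecipitate 2. ENST00000624652 had 20, 33 and 31 counts in the lysates and 0 in every immunoprecipitate.

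Within IFI6, ENST00000361157 held 516, 396 and 418 counts in the lysates and 10, 297 and 0 in immunoprecipitates 1 to 3. ENST00000679644 held 2, 4 and 13 counts in the lysates and 64, 5 and 10 in immunoprecipitates 1 to 3, so that it carried most of the few IFI6 counts of immunoprecipitates 1 and 3.

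Within MX1, the coding transcript ENST00000681266 held 530, 392 and 628 counts in the lysates and 0 in every immunoprecipitate, including immunoprecipitate 2, where MX1 as a whole was highest. The retained-intron transcript ENST00000681382 held 213 of the 253 MX1 counts of immunoprecipitate 3. These transcripts were chosen after their values were seen, and their counts are estimates that depend on how reads were divided between overlapping models.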
